A study of Mus musculus with 12 samples.

Results

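Integrins and laminins hold a muscle fibre to the sheath of matrix around it, and the genes of their subunits were followed here in dystrophin-deficient muscle. The members were chosen by symbol alone, as all rows of the count table named as an integrin alpha, integrin beta or laminin alpha, beta or gamma chain, with 1 integrin alpha gene left out and not analysed here. They are 36 of 24421 genes in the table: 17 integrin alpha, 8 integrin beta and 11 laminin genes. Of these, 33 passed the filter on low counts and were tested, and Lama1, Itgad and Itgb8 did not. The RNA came from the tibialis anterior, a hindlimb muscle, of male mice aged 4 months, with 12 samples taken as 1 mouse each. The 6 WT mice were of strain C57Bl/6, and the other 6 were mdx/mTR. The mdx allele disrupts Dmd, the dystrophin gene, and mTR stands for the RNA component of telomerase. No mice with one of these alleles alone were analysed here, so the parts played by dystrophin loss and by telomerase RNA loss cannot be told apart. The breeding generation and the background strain of the mdx/mTR mice are not given in the sources used here.

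An integrin is a pair of 1 alpha and 1 beta chain that spans the cell membrane, binds matrix outside and, through adaptor proteins, actin inside. A laminin is a cross-shaped trimer of an alpha, a beta and a gamma chain that assembles into the basement membrane. In muscle fibres the main laminin alpha chain comes from Lama2, and it is bound both by dystroglycan, which dystrophin anchors, and by the integrin of Itga7 and Itgb1. Loss of LAMA2 or of ITGA7 causes inherited muscle disease in its own right. Other members mark other cells: Itgb2 and its alpha partners are leukocyte genes, Itgb4 is used by Schwann cells and epithelia, and Lama4 and Lama5 by vessels.

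Dmd, the check of the labels, had a WT mean of 237 CPM against 46.8 CPM in mdx/mTR, and the libraries labelled mdx/mTR were all below the others. CPM, the level used throughout, is a count divided by the library total after scaling by the trimmed mean of M-values (TMM). The WT libraries held 36903560 to 40981012 counts and the mdx/mTR libraries 35136327 to 60330410. Summed levels of 6 muscle fibre markers were 132050 to 158935 CPM in WT against 102843 to 141713 CPM in mdx/mTR, and no marker was at 0. On the first principal component, with 66.4% of the variance, mdx/mTR replicate 5 lay farthest from WT. The labels give no batch.

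Upstream sequence is shown for 4 alpha subunit genes picked after their values were seen, to set genes that moved in opposite directions side by side, Itga4 down and Itgav, Itga5 and Itgax up. The letters are the 250 bases before the RefSeq start in GRCm38.p6, 5′ to 3′ on the gene's strand. They are chr2:79255176-79255425 (plus strand) for Itga4, chr2:83724147-83724396 (plus) for Itgav, chr15:103366792-103367041 (minus) for Itga5 and chr7:128129300-128129549 (plus) for Itgax. Capitals mark GAGGAA, found in sites of PU.1, an ETS family factor, and CAGCTG, an E-box that myogenic factors bind, searched on both strands. Other forms of ETS family sites were not searched.
Itga4: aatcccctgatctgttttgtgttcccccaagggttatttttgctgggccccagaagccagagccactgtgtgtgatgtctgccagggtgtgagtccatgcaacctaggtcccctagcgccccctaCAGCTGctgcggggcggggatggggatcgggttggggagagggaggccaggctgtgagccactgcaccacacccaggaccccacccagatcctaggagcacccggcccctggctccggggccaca
Itgav: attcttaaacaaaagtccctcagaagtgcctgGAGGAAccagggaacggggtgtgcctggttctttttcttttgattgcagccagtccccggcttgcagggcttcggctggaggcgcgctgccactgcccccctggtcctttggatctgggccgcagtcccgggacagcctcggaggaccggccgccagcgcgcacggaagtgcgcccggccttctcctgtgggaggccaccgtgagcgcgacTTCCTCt
Itga5: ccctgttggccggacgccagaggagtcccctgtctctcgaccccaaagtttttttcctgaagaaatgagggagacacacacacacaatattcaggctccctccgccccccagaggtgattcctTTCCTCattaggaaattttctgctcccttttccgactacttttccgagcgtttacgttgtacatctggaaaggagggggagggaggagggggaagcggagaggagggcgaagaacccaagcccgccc
Itgax: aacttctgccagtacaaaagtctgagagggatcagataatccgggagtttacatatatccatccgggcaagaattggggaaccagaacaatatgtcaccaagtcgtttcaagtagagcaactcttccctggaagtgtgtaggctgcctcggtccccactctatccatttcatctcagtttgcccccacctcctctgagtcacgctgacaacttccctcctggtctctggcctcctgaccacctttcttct
The table of upstream sequences held 25 starts of 22 members, and it had none for Lamc3, Itgb2 and Itga7, among others. GAGGAA was in 12 of the 25, against 23.3% of all 32851 starts in the table, and CAGCTG was in 6 of the 25, against 13.0%. Itga4 held the E-box and no GAGGAA, Itgav and Itga5 held GAGGAA, and Itgax held neither in this window. The motifs did not follow the direction of change over the members. GAGGAA also lay before a start of Itgb1, Lama2 and Lamb1, which rose, and of Lama5 and Lamb2, which fell. It was there too for Itga11, Itga2b, Itga3, Itgb6 and Lamb3, which did not pass. CAGCTG also lay before Itga1 and Itgb5, which fell, and Itga2b, Itga9 and Lamb3, which did not pass. These are matches of letters, not shown to be sites.

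Among the 33 members tested, 13 were higher and 7 lower in mdx/mTR at an adjusted p below 0.05 (edgeR quasi-likelihood test, Benjamini-Hochberg over all 13937 genes tested). These are 39.4% and 21.2% of the members, against 25.0% higher and 23.4% lower over all genes tested (48.3% in both directions). The share of members that fell was thus close to that of all genes. The groups did not overlap for 10 of the 33 members in the higher and 3 of the 33 in the lower direction. Over all genes this held for 12.6% in each direction (25.2% together). A change of at least 2-fold was called for 6 of the 33 members, against 9.18% of all genes. The median log2 fold change of the members was 0.27, and that of all genes tested was 0.014. The plot of fold changes sets the falls of Itga4 and Lamc3 apart from the other members, with leukocyte integrins at the other end.

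**Figure D1:**
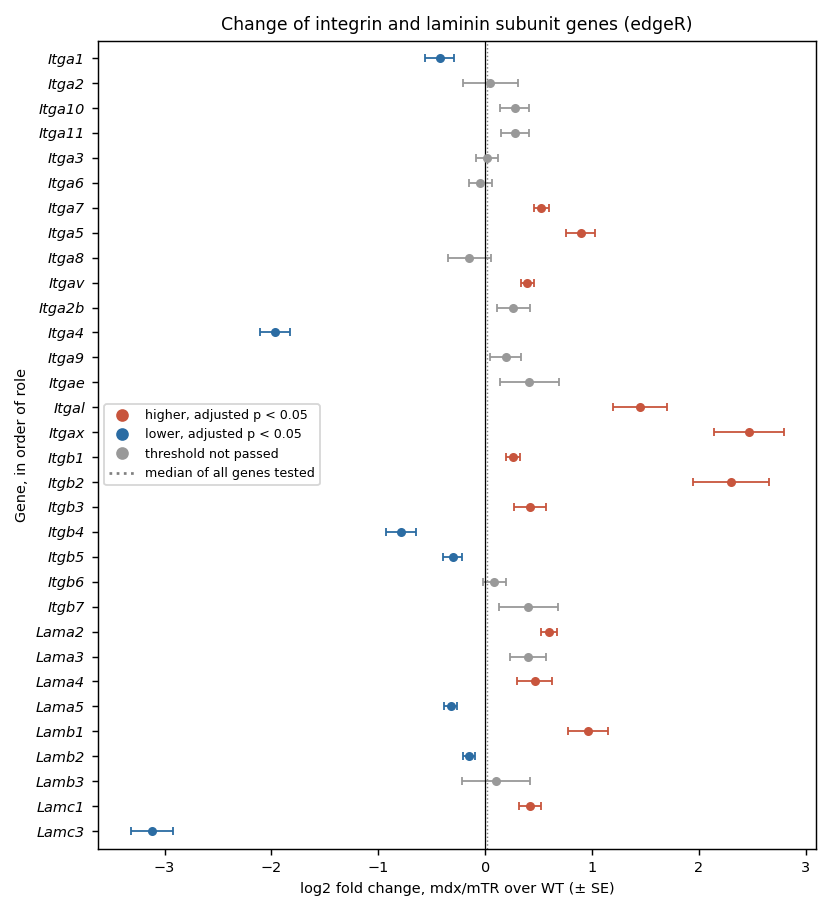
Points give the log2 fold change, mdx/mTR relative to WT (horizontal axis), for 32 tested members (vertical axis, by role), bars the standard error, colours the edgeR call, and the dotted line the median of all genes tested. Lamc3 at -3.12 and Itga4 at -1.97 lie lowest, and Itgax at 2.47 and Itgb2 at 2.30 highest.

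Of the laminin genes, 5 of 10 tested were higher, 3 lower and 2 did not pass. Lama2, the alpha chain of the laminin around muscle fibres, lies on chromosome 10 (26980036 to 27619758, minus strand, GRCm38). It ran from 62.4 to 85.2 CPM in WT, with a median of 71.5, and from 97.4 to 128 CPM in mdx/mTR, with a median of 109. All 6 mdx/mTR mice were above all 6 WT mice. The mean rose from 73.6 ± 8.37 to 111 ± 10.03 CPM (SD, n = 6 each), a log2 fold change of 0.60 ± 0.08 (SE, edgeR adjusted p 4.69e-05). In bulk muscle, fewer or more cells of a type and less or more RNA per cell cannot be told apart, here and for every gene that follows.

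Of the other laminin alpha genes, Lama4 rose, Lama5 fell and Lama3 did not pass. Lama4, the alpha chain of vessel laminins, was 26.8 to 50.4 CPM in WT against 40.1 to 67.3 CPM in mdx/mTR, and the groups overlapped. Its log2 fold change was 0.46 ± 0.16 (edgeR adjusted p 0.0302). The call was lost without WT replicate 1, 3, 4, 5 or 6 and without mdx/mTR replicate 2 or 5, with edgeR adjusted p from 0.0506 to 0.0736 in those fits. Lama5, an alpha chain of vessel and synaptic basement membranes, fell: it was 79.0 to 93.9 CPM in WT against 64.2 to 80.7 CPM in mdx/mTR, with only slight overlap. Its log2 fold change was -0.32 ± 0.06 (edgeR adjusted p 0.000909), and its value with library totals alone was -0.16 (edgeR adjusted p 0.0876). Lama3, an epithelial chain, had a WT mean of 3.58 CPM against 4.74 CPM in mdx/mTR (edgeR adjusted p 0.0608). Lama3 passed without WT replicate 2 (edgeR adjusted p 0.0146) and without mdx/mTR replicate 4 (0.0167). It also passed with upper quartile scaling (edgeR adjusted p 0.0438), when scaled by library totals (0.0164) and with DESeq2 (adjusted p 0.0462). Lama1, an embryonic chain, had 0 to 4 counts in a library, at or near the 3 counts (0.046 to 0.0837 CPM) that a count of 0 allows, too few to test.

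Of the laminin beta genes, Lamb1 rose and Lamb2, the beta chain enriched at the neuromuscular synapse, was slightly lower. Lamb1 ran from 27.1 to 58.0 CPM in WT, with a median of 41.1, and from 60.8 to 121 CPM in mdx/mTR, with a median of 73.5. No mdx/mTR mouse came down to the WT range. The mean went from 42.2 ± 10.3 to 82.1 ± 23.3 CPM, a 1.94-fold rise (log2 fold change of 0.96 ± 0.19 SE, edgeR adjusted p 0.000964). Lamb2 was 246 to 289 CPM in WT against 217 to 268 CPM in mdx/mTR, with a log2 fold change of -0.15 ± 0.06 (edgeR adjusted p 0.0420). That call was lost in 9 of the 12 fits without 1 mouse (WT replicates 2, 3, 4 and 6 and mdx/mTR replicates 1, 2, 4, 5 and 6, edgeR adjusted p 0.0533 to 0.0895). Upper quartile scaling ended the call too (edgeR adjusted p 0.132), as did scaling by library totals, where the value was 5.83e-05 (edgeR adjusted p 0.999). Lamb3, an epithelial chain, had a WT mean of 0.337 CPM against 0.364 CPM in mdx/mTR (edgeR adjusted p 0.808).

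Of the laminin gamma genes, Lamc1 rose and Lamc3 fell. Lamc1, the gamma chain of most laminins, was 148 to 206 CPM in WT against 201 to 298 CPM in mdx/mTR, overlapping only at 1 edge, with a log2 fold change of 0.42 ± 0.10 (edgeR adjusted p 0.0034).

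Lamc3 showed the largest fall among the tested members. The gene lies on chromosome 2 (31887291 to 31946539, plus strand). It had 90 to 134 counts in each WT library and 13 to 31 in each mdx/mTR library, although 4 of the 6 mdx/mTR libraries were deeper than every WT library. In CPM this was 2.50 to 3.50 in WT, with a median of 3.12, and 0.200 to 0.507 in mdx/mTR, with a median of 0.364. The lowest WT mouse was well above the highest mdx/mTR mouse. The mean went from 3.09 ± 0.423 to 0.354 ± 0.109 CPM, 11.5% of WT (log2 fold change of -3.12 ± 0.20 SE, edgeR adjusted p 1.08e-07). An antisense gene of the annotation overlaps 6.27% of its exonic bases, and strand handling is not given in the sources used here.

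Within each library the laminin chains were also compared as shares of their family, in counts per kilobase of the longest coding transcript, which does not depend on library scaling. Lama2 made up 35.7% ± 1.87 of the laminin alpha chains in WT against 44.4% ± 2.02 in mdx/mTR (SD, n = 6 per group, two-sided exact permutation p 0.00216, adjusted p 0.00303 over the 7 shares tested). The Lama5 share went from 35.6% ± 3.29 to 23.4% ± 2.95 (exact permutation p 0.00216, adjusted p 0.00303). In both cases the mdx/mTR mice lay outside the WT range, and 0.00216 is the smallest p this design allows. A larger share of a chain leaves less for the rest of its family, so these differences are not separate results. The shares were chosen with earlier results of these data known, which the p-values do not cover. The Lama4 share was 27.1% ± 2.89 and 30.5% ± 4.11 (exact permutation p 0.139, adjusted p 0.139). WT replicate 2 had the highest WT share, 32.2%, and without it the Lama4 difference was 4.43 points (exact permutation adjusted p 0.0303). The Lamb1 share of the laminin beta chains was 13.1% ± 2.25 in WT against 24.6% ± 5.51 in mdx/mTR, again without overlap (exact permutation p 0.00216, adjusted p 0.00303). The highest Lamb1 shares were those of mdx/mTR replicates 2 and 5, at 32.3% and 30.9%, and the other 4 lay between 20.1% and 22.9%.

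**Figure D2:**
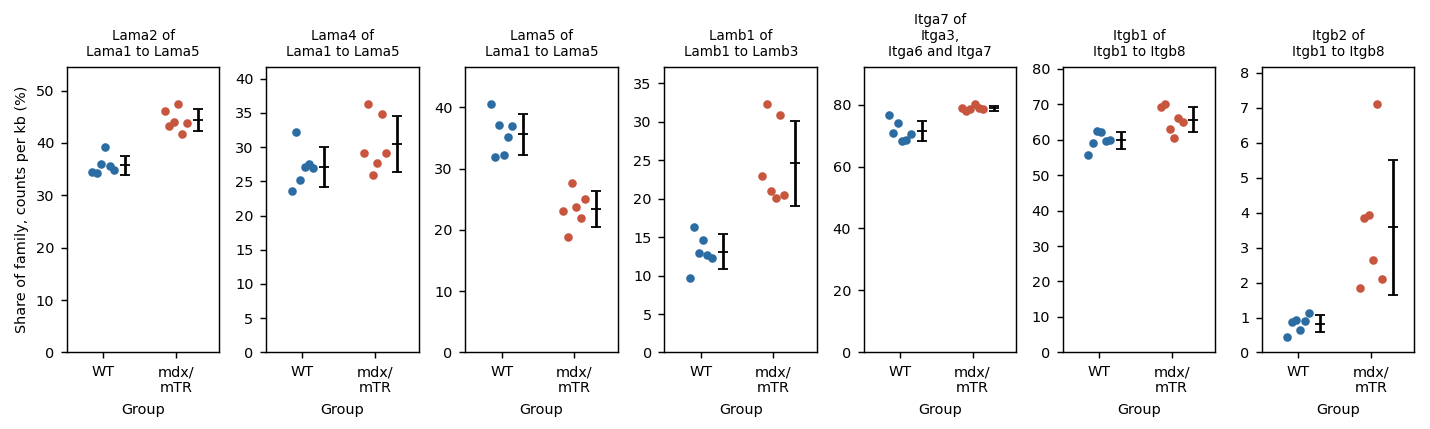
Each panel gives the share of 1 chain in its family (percent of counts per kb, vertical axis from 0) for the 6 WT and 6 mdx/mTR mice (horizontal axis, points in order of replicate number), with the mean and SD beside them. The groups do not overlap for Lama2, Lama5, Lamb1, Itga7 and Itgb2, and they overlap for Lama4 and Itgb1.

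Among the receptors, 3 alpha subunits bind laminin. Itga7, the main laminin-binding alpha chain of the muscle fibre (chromosome 10, 128933818 to 128958282, plus strand), was 132 to 159 CPM in WT, with a median of 143. In mdx/mTR it was 186 to 234 CPM, with a median of 206. All mdx/mTR mice were above all WT mice, and the mean rose from 144 ± 9.98 to 207 ± 19.7 CPM (log2 fold change of 0.53 ± 0.07 SE, edgeR adjusted p 3.71e-05). Itga6, a laminin receptor chain of endothelial cells among others, had a WT mean of 53.6 CPM against 51.9 CPM in mdx/mTR (edgeR adjusted p 0.750). Itga3, an epithelial alpha chain, averaged 8.89 and 8.99 CPM (edgeR adjusted p 0.921). Of the counts per kilobase of these 3 genes, Itga7 held 71.5% ± 3.27 in WT against 78.8% ± 0.768 in mdx/mTR (SD, n = 6 per group, two-sided exact permutation p 0.00216, adjusted p 0.00303). The mdx/mTR mice were tightly grouped, from 77.8% to 80.1%. Markers of regenerating fibres and myoblasts, 5 of 5 higher with a median log2 fold change of 3.53, summed to 28.2 to 40.0 CPM in WT against 107 to 501 CPM in mdx/mTR, with Tmem8c at 0 in some libraries. Their part in the rises of Itga7, Itgb1 and Lama2 was not tested. Gene counts do not separate the splice forms of Itga7 or Itgb1.

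Of the 4 collagen-binding alpha genes, none rose, against 25.0% of all genes tested. Itga1, on vessels and stromal cells, was 18.3 to 34.6 CPM in WT against 17.7 to 23.9 CPM in mdx/mTR, so the groups overlapped (log2 fold change of -0.42 ± 0.14, edgeR adjusted p 0.0192). With library totals alone its value was -0.27 (edgeR adjusted p 0.159). Itga11, a fibroblast receptor for fibrillar collagen, had a WT mean of 8.80 CPM against 10.7 CPM in mdx/mTR (edgeR adjusted p 0.0962). It passed without WT replicate 4 (edgeR adjusted p 0.0184). Itga10, known from cartilage, averaged 2.38 and 2.89 CPM (edgeR adjusted p 0.106), and another gene of the annotation shares 32.01% of the 50-base stretches of its transcript, so its level is uncertain. Scaled by library totals only, Itga10 and Itga11 passed (edgeR adjusted p 0.0230 and 0.0238). Itga2, a platelet and epithelial chain, averaged 0.367 and 0.377 CPM (edgeR adjusted p 0.892).

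The alpha genes whose products recognise the arginine-glycine-aspartate (RGD) motif of fibronectin and vitronectin number 4, of which 2 rose and 2 did not pass. By comparison, 25.0% of all genes tested rose. Itga5, the fibronectin receptor chain (chromosome 15, 103344286 to 103366763, minus strand), was 13.3 to 18.6 CPM in WT, with a median of 14.7. It was 21.8 to 36.2 CPM in mdx/mTR, with a median of 26.4, and the groups did not overlap. The rise was 1.86-fold (log2 fold change of 0.89 ± 0.14 SE, edgeR adjusted p 0.000147). Itgav, whose product pairs with several beta chains and can activate latent TGF-beta, was 35.2 to 38.1 CPM in WT against 41.3 to 55.6 CPM in mdx/mTR, also without overlap (log2 fold change of 0.39 ± 0.06, edgeR adjusted p 0.00017). Its WT mice were close together, with a coefficient of variation of 2.5%. Itga8, of smooth muscle and mesenchymal cells, had a WT mean of 2.78 CPM against 2.52 CPM in mdx/mTR (edgeR adjusted p 0.564). Itga2b, the platelet chain, averaged 1.53 and 1.84 CPM (edgeR adjusted p 0.183).

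Itga4 fell to 25.5% of WT, while Itgax, Itgal and Itgb2, described next, rose. Its product binds VCAM1 and fibronectin and is best known from leukocytes. The gene lies on chromosome 2 (79255426 to 79333123, plus strand). It had 1292 to 1518 counts in each WT library and 359 to 717 in each mdx/mTR library. In CPM, WT ran from 36.1 to 41.5 with a median of 39.3, and mdx/mTR from 7.86 to 15.3 with a median of 8.92. Every mdx/mTR mouse was far below every WT mouse, and mdx/mTR replicate 5 was the highest of its group. The mean went from 39.1 ± 1.89 to 9.98 ± 2.87 CPM (log2 fold change of -1.97 ± 0.14 SE, edgeR adjusted p 3.66e-07). Among fits that left out 1 mouse the value stayed between -2.13 and -1.91. Cerkl, on the opposite strand, overlaps 8.04% of the exonic bases of Itga4. The WT mean of Cerkl was 0.146 CPM against 0.222 CPM in mdx/mTR. Strand handling is not given, and the part of this overlap in the counts of Itga4 was not tested. Of the 50-base stretches of the Itga4 transcript, 10.87% also occur in other genes, Cerkl among them, so the level is less certain to that extent. Both strands were searched, so part of this can be the same overlap with Cerkl. Itga9, whose product is the closest relative of that of Itga4, had a WT mean of 9.56 CPM against 10.9 CPM in mdx/mTR (edgeR adjusted p 0.289).

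Vcam1, a ligand of the Itga4 product and also a satellite cell gene, rose from 4.83 ± 0.754 to 8.46 ± 2.21 CPM (log2 fold change of 0.81 ± 0.16, edgeR adjusted p 0.000844). Of the beta partners of Itga4, Itgb1 rose and Itgb7 did not pass. Satellite cell markers, a list that includes Vcam1, summed to 17.8 to 23.8 CPM in WT against 24.0 to 32.0 CPM in mdx/mTR. Of these, 3 of 5 were higher and 0 lower, so the list is not separate from the rise of Vcam1. The leukocyte marker lists are given with Itgb2. Endothelial markers summed to 425 to 568 CPM in WT against 349 to 469 CPM in mdx/mTR, with 1 of 6 higher and 3 lower. The part of these cell types in the fall of Itga4 was not tested.

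Of the 3 leukocyte alpha genes tested, 2 rose, against 25.0% of all genes tested. Itgax, of dendritic cells and macrophages (chromosome 7, 128129547 to 128150657, plus strand), was 0.389 to 1.44 CPM in WT, with a median of 0.815. It was 2.41 to 7.71 CPM in mdx/mTR, with a median of 3.90, and all mdx/mTR mice were above all WT mice. The mean rose 5.55-fold (log2 fold change of 2.47 ± 0.32 SE, edgeR adjusted p 4.66e-05). Of the 50-base stretches of the Itgax transcript, 9.61% also occur in Itgad. Itgal, of T cells and other leukocytes, rose 2.75-fold, from 0.972 to 1.31 CPM in WT to 1.99 to 5.99 CPM in mdx/mTR (log2 fold change of 1.45 ± 0.25, edgeR adjusted p 0.000415). Itgae, of intraepithelial T cells and some dendritic cells, had a WT mean of 0.462 CPM against 0.621 CPM in mdx/mTR (edgeR adjusted p 0.237). Itgad, which lies next to Itgax and has 22.04% of its 50-base stretches in other genes, Itgax among them, had 2 to 7 counts in a WT library and 4 to 21 in an mdx/mTR library and was not tested.

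Itgb2, the beta chain that pairs with Itgal, Itgax and Itgad, rose 4.93-fold. WT mice had 1.42 to 3.80 CPM, with a median of 3.19, and mdx/mTR mice 6.55 to 30.9 CPM, with a median of 12.5. The groups did not overlap, and mdx/mTR replicate 5 was far above the next mouse, at 15.1 CPM. The log2 fold change was 2.30 ± 0.36 (SE, edgeR adjusted p 0.000175) and 1.91 without mdx/mTR replicate 5. Its share of the integrin beta counts per kilobase went from 0.817% ± 0.242 to 3.58% ± 1.94 (SD, n = 6 per group, two-sided exact permutation p 0.00216, adjusted p 0.00303). Macrophage markers summed to 64.9 to 107 CPM in WT against 145 to 355 CPM in mdx/mTR, with 7 of 8 markers higher and none at 0 in any library. Neutrophil markers summed to 0.639 to 2.05 CPM and 1.87 to 19.4 CPM, overlapping, with 2 of 3 tested higher and S100a8, Mmp8 and Retnlg at 0 in some libraries. T and NK cell markers summed to 0.139 to 0.698 CPM and 1.83 to 3.81 CPM, with the 1 gene tested higher and Cd3d, Cd3g, Cd8a and Ncr1 at 0 in some. Dendritic cell markers summed to 8.37 to 11 CPM and 9.41 to 13.4 CPM, also overlapping, with Ccr7 at 0 in some and 4 of 6 higher. B cell markers summed to 0.361 to 2.04 CPM and 0.628 to 1.58 CPM, with 0 of 2 tested higher or lower and Cd79a, Ms4a1 and Pax5 at 0 in some. Within mdx/mTR, replicate 5 was highest for Itgax, Itgal, Itgae, Itgb2 and Itgb7, and its marker sum was highest in 11 of all 14 cell type lists, these 5 included, so this is not particular to leukocyte lists, and the part of these cells in the rises was not tested.

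Of the other beta genes, Itgb1, the common partner of most alpha chains, was 237 to 298 CPM in WT against 299.8 to 368 CPM in mdx/mTR. The groups were adjacent without overlap, and the log2 fold change was 0.26 ± 0.07 (SE, edgeR adjusted p 0.00646). Its share of the beta counts per kilobase was 59.8% ± 2.43 in WT against 65.6% ± 3.58 in mdx/mTR (SD, n = 6 per group, two-sided exact permutation p 0.00866, adjusted p 0.0101), with overlapping ranges. Itgb3, a partner of Itgav and of Itga2b, averaged 2.37 ± 0.450 and 3.17 ± 0.572 CPM, with overlapping groups (log2 fold change of 0.42 ± 0.15, edgeR adjusted p 0.0346). That call was lost without WT replicate 1, 2 or 6 and without mdx/mTR replicate 2, 4 or 5 (edgeR adjusted p 0.0595 to 0.0796). Platelet markers, a list that includes Itga2b, summed to 10.9 to 14.9 CPM in WT against 13.8 to 23.8 CPM in mdx/mTR, with 2 of 4 tested higher, 1 lower and Gp6 at 0 in some libraries.

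Itgb5, another partner of Itgav, fell from 122 ± 7.21 to 98.8 ± 14.7 CPM while Itgav rose (log2 fold change of -0.30 ± 0.09, edgeR adjusted p 0.00987). Its groups overlapped, at 112 to 131 CPM in WT against 80.0 to 120 CPM in mdx/mTR, and with library totals alone its value was -0.15 (edgeR adjusted p 0.177). Another gene of the annotation shares 8.17% of the 50-base stretches of the Itgb5 transcript. Itgb6, an epithelial partner of Itgav, had a WT mean of 32.6 CPM against 34.6 CPM in mdx/mTR (edgeR adjusted p 0.524). Itgb7, a leukocyte partner of Itga4 and Itgae, averaged 2.13 and 2.83 CPM (edgeR adjusted p 0.243). Itgb8, which like Itgb6 serves to activate TGF-beta, had 4 to 18 counts in a library and was not tested.

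Itgb4, the long-tailed beta chain that pairs with Itga6 on Schwann cells and epithelia, fell. WT mice had 7.24 to 9.66 CPM, with a median of 8.28, and mdx/mTR mice 3.50 to 7.09 CPM, with a median of 4.61. The highest mdx/mTR mouse was just below the lowest WT mouse (log2 fold change of -0.79 ± 0.14 SE, edgeR adjusted p 0.000525). A noncoding gene on the opposite strand overlaps 7.66% of the exonic bases of Itgb4. With both strands searched, that gene holds 4.89% of the 50-base stretches of the Itgb4 transcript, which can be the same overlap counted again. Schwann cell markers fell as well: 5 of 6 were lower and 0 higher, and their sum was 43.5 to 55.1 CPM in WT against 23.2 to 35.8 CPM in mdx/mTR. The part of Schwann cells in the fall of Itgb4 was not tested.

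**Figure D3:**
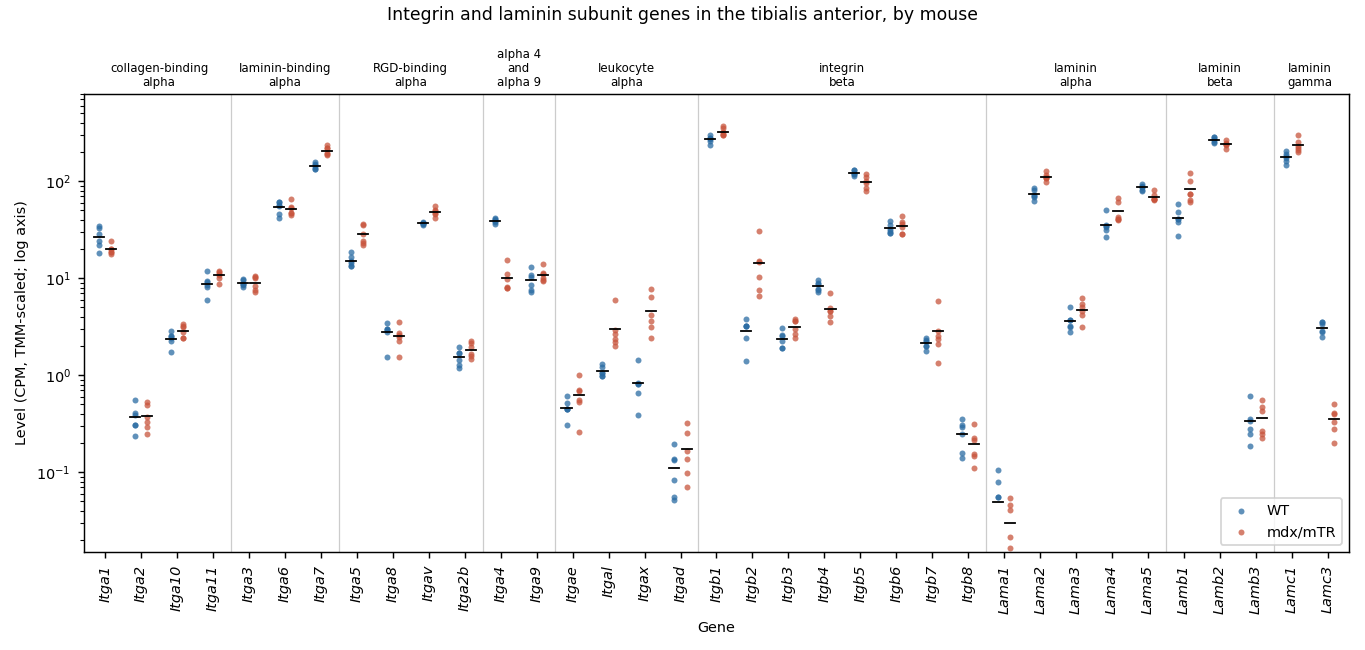
Each point is 1 mouse, with its level in CPM on a log axis (vertical) for 35 members (horizontal, by role), WT in blue and mdx/mTR in red, and bars at the group means. Values of 0, which only Lama1 has, are not drawn, and the mdx/mTR points of Itga4 and Lamc3 lie wholly below those of WT.

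Per length of transcript, the order of the members changed mainly at the genes named above. In WT the most abundant alpha gene was Itga7, at 35.7 ± 2.48 CPM per kb, followed by Itga6 at 12.4 ± 1.82 and Itgav at 5.21 ± 0.130 (SD, n = 6 each). Itga4 was next in WT at 4.00 ± 0.193 CPM per kb, overlapping the range of Itga5 at 3.47 ± 0.464. In mdx/mTR, Itga4 was number 10 of the 17 at 1.02 ± 0.294 CPM per kb, overlapping the range of Itgax at 1.13 ± 0.507. Itgax moved from number 14 to number 9 among the alpha genes. Among the beta genes Itgb1 led with 70.9 ± 5.39 CPM per kb in WT and 84.9 ± 7.71 in mdx/mTR, followed in both groups by Itgb5 and Itgb6. Among the laminins Lamb2 led with 47.7 ± 3.0 and 42.9 ± 2.97 CPM per kb, and Lamc1 was next with 23.1 ± 2.70 and 31.0 ± 4.66. In WT, Lama2 at 7.65 ± 0.871, Lama5 at 7.58 ± 0.477 and Lamb1 at 7.30 ± 1.79 CPM per kb had overlapping ranges. In mdx/mTR they stood at 11.6 ± 1.04, 6.06 ± 0.560 and 14.2 ± 4.02 CPM per kb, with Lama5 below the other 2 in every mouse.

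**Figure D4:**
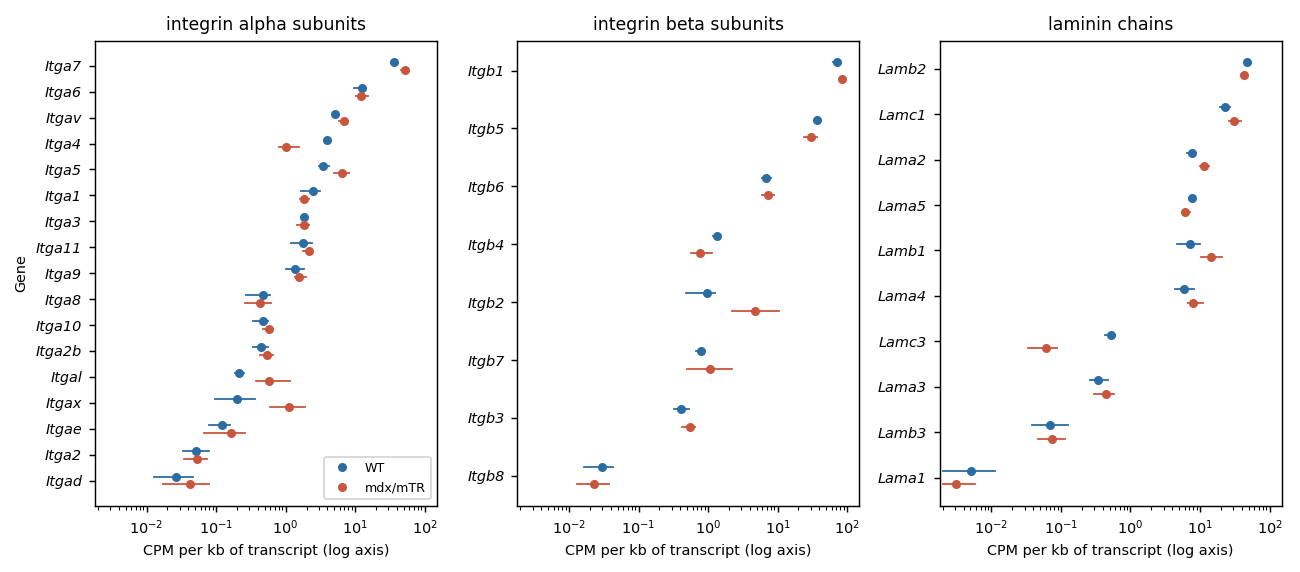
Points are group means in CPM per kb of the longest coding transcript (horizontal, log axis) and lines run from the lowest to the highest mouse, for alpha, beta and laminin genes (vertical, in order of the WT level). Itga7, Itgb1 and Lamb2 lead their panels in both groups, and the red points of Itga4 and Lamc3 lie left of the blue ones.

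The mice differed among themselves over many members at once. Within mdx/mTR, replicates 2 and 5 were each the highest mouse for 11 of the 33 tested members, and replicate 1 was highest for 0 and lowest for 10. Replicate 5 led the leukocyte genes, and replicate 2 led Lama2, Lama4, Lamb1 and Lamc1. Within WT, replicate 2 was highest for 15 of 33 and replicate 1 lowest for 20 of 33. The coefficient of variation was larger in mdx/mTR than in WT for 23 of the 33, with medians of 18% and 13.7%. None of these counts was made over all genes, so they cannot be read as particular to the members. On the first principal component of all genes tested, mdx/mTR replicates 5 (51.69) and 2 (38.34) also lay farthest from WT, and replicate 1 (15.05) nearest. WT replicates 1 (-35.85) and 2 (-20.72) were the ends of the WT range there.

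**Figure D5:**
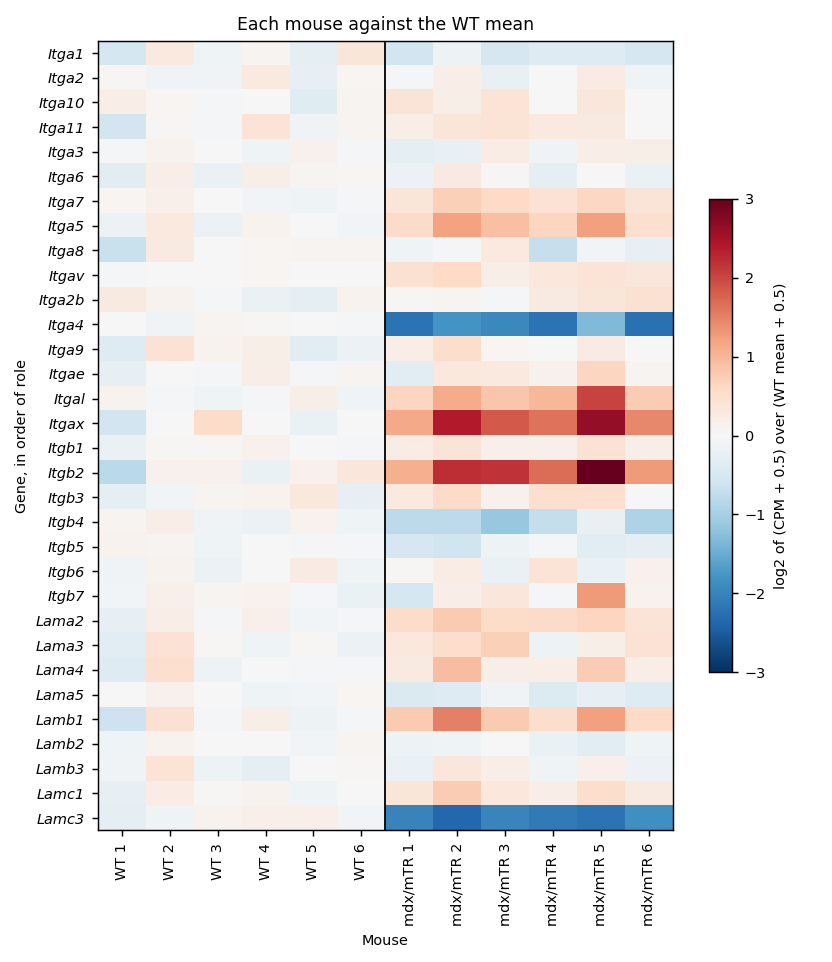
Rows are 32 tested members (vertical, by role), columns the 12 mice (horizontal), and colour is the log2 of (CPM + 0.5) over the WT mean plus 0.5. Itga4 and Lamc3 are blue in all 6 mdx/mTR mice, and Itgax, Itgb2 and Itgal are red, most deeply in replicate 5.

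The partners of the members in the basement membrane and inside the cell were read from lists of other genes. Of 12 basement membrane partners tested, 8 were higher (66.7%) and 0 lower, against 25.0% and 23.4% of all genes tested. Their median log2 fold change was 0.56, against 0.014 for all genes. Col4a5, a collagen IV chain, rose from 3.38 ± 0.564 to 8.34 ± 1.58 CPM (log2 fold change of 1.30 ± 0.14, edgeR adjusted p 1.13e-05). Nid2, which links laminin to collagen IV, rose from 15.03 ± 3.33 to 30.1 ± 7.95 CPM (log2 fold change of 1.0 ± 0.17, edgeR adjusted p 0.000348). The core proteoglycan gene Hspg2 (0.20, edgeR adjusted p 0.130) and Agrn, which binds laminin at the synapse (0.05, edgeR adjusted p 0.647), did not pass. Fibro-adipogenic progenitor markers, of a main matrix-making cell of muscle, summed to 577 to 912 CPM in WT against 1185 to 2059 CPM in mdx/mTR, with 5 of 6 higher. Tendon cell markers summed to 131 to 203 CPM in WT against 238 to 480 CPM in mdx/mTR, with 4 of 5 higher. The part of these cells in the rises of matrix genes was not tested.

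Of 14 tested ligands other than laminins, 10 were higher (71.4%) and 1 lower (7.14%), against 25.0% and 23.4% of all genes tested. Their median log2 fold change was 0.78. After Vcam1, the smallest p was that of Vwf, the platelet adhesion protein of endothelium, which fell from 51.3 ± 5.80 to 35.8 ± 6.08 CPM (log2 fold change of -0.52 ± 0.10, edgeR adjusted p 0.00111). Of 27 tested adaptors and kinases on the inner side of the membrane, 14 were higher (51.9%), 3 lower (11.1%) and 10 did not pass. These compare with the same all-gene shares, and their median log2 fold change was 0.18. Tns3, a tensin that binds beta chain tails, rose from 13.8 ± 1.57 to 30.1 ± 7.90 CPM (log2 fold change of 1.13 ± 0.15, edgeR adjusted p 4.34e-05). Ptk2b, a relative of the focal adhesion kinase gene Ptk2 with high expression in leukocytes, rose from 1.03 ± 0.335 to 4.16 ± 1.76 CPM (log2 fold change of 2.0 ± 0.28, edgeR adjusted p 6.51e-05). The 3 that fell were Lims2 (-0.47), Fermt2 (-0.29) and Ptk2 itself (-0.25). The talin genes Tln1 and Tln2, which switch integrins on, had log2 fold changes of -0.0068 and -0.073 (edgeR adjusted p 0.957 and 0.360). Of the 3 inhibitors of integrin activation, Dok1 rose (1.11 ± 0.16, edgeR adjusted p 9.38e-05), while Itgb1bp1 (-0.14, edgeR adjusted p 0.0512) and Sharpin (-0.024, edgeR adjusted p 0.745) did not pass.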

How the data were processed

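Whole-number counts per gene symbol were deposited by the authors, 1 column per sample, for 6 WT and 6 mdx/mTR samples. FastQC, STAR, DESeq2 and the build mm10 are named per the submitters' processing notes, and the counter, annotation and strand handling are not given in the sources used here. A second deposited table gives the authors' test of mdx/mTR over WT as a mean signal, a log2 fold change, a test score and p-values. All 12 columns matched a title in the labels (0 unmatched), and each sample was taken as 1 mouse. The labels do not state that outright, so p-values measure the spread between these samples, which may in part be technical.

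Counts were tested in R 4.3.3 with edgeR 4.0.16: filterByExpr (13937 of 24421 genes, 99.97% of counts), TMM scaling, group as the only term, glmQLFit and glmQLFTest, and Benjamini-Hochberg adjustment over all genes with a threshold of 0.05. The standard error is the log2 fold change divided by the square root of F. On simulated counts with 200 genes changed 2-fold, 90.5% were recovered with 9 false calls (4.74% of calls) among 13818 genes. In the data a far larger share, 48.3% of genes, was called, so the simulation does not test how calls depend on scaling. Shares used exact permutation tests in scipy 1.17.1. Lengths, places and shared 50-base stretches came from GENCODE M21 (GRCm38) and upstream sequence from the RefSeq table of GRCm38.p6. No replicate pair agreed within sampling noise (chi-square per degree of freedom 9.29 to 122). With 0 counts, up to 3 are compatible at 95%, and such limits cover counting error only, since reads were not counted by molecular identifiers.

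The members, lists, roles, shares and naming rule (all members, Dmd, and the 2 smallest p-values of each pathway list) were chosen with earlier results of these data known, and other genes were named after their values were seen. Alternatives were other filters and scalings, DESeq2 1.42.0, limma 3.58.1 (voom), a replicate block, each mouse left out, a stricter threshold and a minimum effect. A result counted among the members is not reported by name or drawn.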

Additional observations from a re-analysis of the deposited data

Results flagged for a closer look

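For 32 tested members and the 7 shares, the most extreme of the 6 mice in a group was called distant when its gap to the next mouse exceeded 0.625 of the whole range. This held in 6 of 78 sets of values, and chance alone would give about 3.9. In mdx/mTR, replicate 5 stood apart for Itgb2 (30.9 CPM against 15.1 in the next mouse), Itgal (5.99 against 2.95) and Itgb7 (5.84 against 2.84). In WT, Itga8 was low in replicate 1 (1.56 CPM against 2.80), Lama4 was high in replicate 2 (50.4 against 35.4), and the Lama2 share of laminin alpha chains was high in replicate 4 (39.3% against 36.0%).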

How the results depend on the processing

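Of the 13 rises, 11 kept their direction and call under the other filters, scalings, tools, the replicate block and all fits without 1 mouse (Itgb3 and Lama4 did not), and so did 3 of the 7 falls (Itga4, Itgb4 and Lamc3). Leaving out 1 mouse gave 11 to 13 rises, 6 or 7 falls and 6125 to 6816 genes changed. With library totals alone the all-gene median log2 fold change was 0.169 in place of 0.014. In that fit 16 members rose and 3 fell, while 7156 of all 13937 genes tested changed. Itga6 (0.114), Itga8 (0.0071) and Lamb2 (5.83e-05) changed sign. Against a minimum log2 fold change of 0.5, 1368 genes passed, with 6 members higher and 2 lower, 8 in all. At an adjusted p of 0.01, 11 members rose and 5 fell, and 4621 of all 13937 genes tested passed. Signs of values near 0 also changed for Itga3 with limma-voom (-0.016) and without 1 mouse (-0.034 to 0.071), Itga2 (-0.067 to 0.204) and Lamb3 (-0.076 to 0.356). The Lama4 share difference was 2.26 to 4.43 points without 1 mouse, and it passed without WT replicate 2; the other 6 shares kept their calls in those fits and without division by length. Same-numbered mice had correlations of deviations from -0.155 to 0.354, with 2 of 6 above 0.1. Differently numbered mice were not compared, so whether the numbers pair the mice is not settled. With the replicate block 14 members rose, Lama3 added (edgeR adjusted p 0.0344), 7 fell, and 6420 genes changed. DESeq2 gave 14 and 7, with 6951 genes changed. Depth limits Lama1, Itgad and Itgb8, which had too few counts to test.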

Other observations

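At an adjusted p below 0.05, 14 members are higher and 7 lower in the authors' deposited table, whose all-gene shares were not counted here. These include the 20 members called by edgeR, with Lama3 as the addition (log2 fold change 0.37 and adjusted p 0.0445 in the authors' deposited table). All 33 tested members have the same sign in both. The authors' deposited table gives -2.93 for Lamc3 and -1.91 for Itga4, close to edgeR, and smaller rises for Itgax (2.10) and Itgb2 (1.80). DESeq2 run here gave -3.14 for Lamc3, -1.98 for Itga4, 2.46 for Itgax and 2.29 for Itgb2. How the deposited fold changes were estimated was not examined, so they may not be the same measure.

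Some members are neighbours in the genome. Itga1, which fell, and Itga2, whose change did not pass, are both on the minus strand of chromosome 13. Their lower coordinates, which are the far ends from their starts, lie 120015 bases apart. No other tested gene has its lower coordinate between these. Itga4, which fell, and Itgav, which rose, start 4468971 bases apart on chromosome 2 with 7 other tested genes between.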
